A study of Mus musculus with 4 samples.

Results

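The 10 genes followed here in cells sorted from mouse liver encode secreted or membrane-bound factors of matrix turnover and fibrosis: Tgfb1, Tgfbi, Vegfa, Fn1, Thbs1, Mmp8, Mmp12, Mmp13, Mmp14 and Timp2. They were chosen by symbol, and all 10 were found among the 27998 genes counted in each library. The cells came from male wild-type C57BL/6 mice, bought at 8 weeks of age and matched for weight, which then received a normal control diet (NCD) or a diet deficient in methionine and choline (MCD) for 6 weeks. No other allele, agent or treatment is named for either diet, and each diet has 2 libraries of droplet single-cell RNA sequencing (NCD 1 and 2, MCD 1 and 2). The sort took live (7AAD-) CD45+ Ly6G- cells with intermediate CD11b, and the F4/80 level of the gate is given as low in the text of the series but as high in the sample labels. How many mice stand behind a library was not stated, so the p-values below measure only the spread between libraries, which may be technical. No label gives a preparation batch, and each library belongs to 1 diet, so batch and diet cannot be told apart.

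In a fatty or injured liver, recruited monocytes and macrophages both lay down and remove matrix. TGF-β1, the product of Tgfb1, is secreted in a latent form and, once released, drives stellate cells to make collagen, while thrombospondin-1 (Thbs1) is one of the proteins that can release it. The matrix metalloproteinases cut the fibres: MMP8 and MMP13 are secreted collagenases, MMP12 is the elastase of macrophages, and MMP14 is anchored in the membrane, where it cleaves collagen and, with the help of the inhibitor TIMP2, activates MMP2. Diets deficient in methionine and choline are a common way to produce fatty liver with inflammation and fibrosis in mice.

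After filtering, 1735 and 1786 cells remained of 2783 and 2699 barcodes in the NCD libraries and 2950 and 3138 of 3349 and 3475 in the MCD libraries. Depth differed with diet: the median retained cell held 2173 and 2253.5 UMIs (unique molecular identifiers, 1 per captured transcript) on NCD and 12038 and 12300 on MCD, and 33.6% to 37.2% of NCD barcodes but 9.44% to 11.6% of MCD barcodes had over 10% mitochondrial UMIs. Pairs of libraries shared 4 to 12 cell barcodes. Clusters were named by marker genes, and 4 classes form the monocyte and macrophage population tested below: monocytes of the Ly6Chi-like kind (the classical, inflammatory form), those of the Ly6Clo-like kind (which patrol vessels), C1q macrophage-like cells and cells like lipid-associated macrophages. They held 382, 415, 641 and 743, then 175, 193, 169 and 229, then 65, 47, 180 and 116, and last 2, 4, 264 and 224 cells in NCD 1, NCD 2, MCD 1 and MCD 2. The cells of the 2 diets fell into different clusters within a class: cluster 1 (NCD) against clusters 2 and 5 (MCD) for the Ly6Chi-like, 10 against 9 for the Ly6Clo-like and 21 against 12 for the C1q macrophage-like class. Cluster 8, the cells like lipid-associated macrophages, had 3 markers of that name (Spp1, Gpnmb, Lpl) and 3 C1q genes among its 10 leading genes. MCD cluster 12 had 1 marker of the C1q macrophage list and no C1q gene among its 10 leading genes. Among its 50 leading genes were 5 of that list. At Leiden resolution 1.5 a cluster of 279 MCD cells with like leading genes (Hes1, Itgb5, Aif1) stayed unnamed. Of the genes that define the sort, Ptprc (CD45) had a UMI in 84.8% to 99.5% and Itgam (CD11b) in 40.1% to 89.6% of the cells of the 4 classes, and Ly6g had no UMI in any library. Endothelial-like cells, a type not expected in a CD45+ gate, were present (188, 290, 106 and 231 cells). They did not lack Ptprc, which had a UMI in 89.9%, 92.4%, 81.1% and 66.7% of them in NCD 1, NCD 2, MCD 1 and MCD 2. Itgam had a UMI in 53.7%, 60.0%, 57.6% and 58.0% of them.

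Of the 4 metalloproteinase genes, Mmp13, Mmp12 and Mmp8 lie in 1 gene cluster on chromosome 9, in the order given, and their start regions are shown here because Mmp13 fell and Mmp8 rose between the diets. On GRCm38 (GENCODE M21) Mmp13 spans 7272514 to 7283331, Mmp12 7344381 to 7369499 and Mmp8 7558456 to 7568485, all on the plus strand and all protein-coding. The genes between Mmp12 and Mmp8, which are Mmp1b, Mmp3, Mmp1a and Mmp10, had 0 UMIs in every library. Mmp1b overlaps the end of Mmp12 on the other strand, so with no UMI there the count of Mmp12 is not shared with it as far as the files show. The start regions below (RefSeq, GRCm38.p6, plus strand, 5′ to 3′) run from 250 bases before a gene start to 50 bases after it. Capitals mark the letters TGANTCA, the core bound by AP-1, and TATAAA, the letters of the TATA box, searched on both strands.
Mmp13, chr9:7272264-7272563: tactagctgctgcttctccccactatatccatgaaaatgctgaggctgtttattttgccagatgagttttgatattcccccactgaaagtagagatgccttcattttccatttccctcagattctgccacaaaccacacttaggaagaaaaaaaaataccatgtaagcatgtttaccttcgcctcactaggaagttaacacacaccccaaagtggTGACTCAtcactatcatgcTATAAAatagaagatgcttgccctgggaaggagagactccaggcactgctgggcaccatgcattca
Mmp12, chr9:7347124-7347423: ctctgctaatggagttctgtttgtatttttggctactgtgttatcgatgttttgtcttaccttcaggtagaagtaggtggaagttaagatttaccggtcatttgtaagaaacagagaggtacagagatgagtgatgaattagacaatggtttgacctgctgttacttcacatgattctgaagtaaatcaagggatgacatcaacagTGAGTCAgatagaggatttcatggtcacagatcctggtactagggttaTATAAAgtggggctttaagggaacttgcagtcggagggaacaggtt
Mmp8, chr9:7558179-7558478: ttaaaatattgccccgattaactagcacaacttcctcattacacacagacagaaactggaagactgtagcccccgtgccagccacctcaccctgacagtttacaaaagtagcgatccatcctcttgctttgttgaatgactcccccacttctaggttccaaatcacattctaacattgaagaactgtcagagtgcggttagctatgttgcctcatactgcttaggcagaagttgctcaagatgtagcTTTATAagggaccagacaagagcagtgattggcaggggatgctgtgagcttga
Mmp13 and this start of Mmp12 each hold 1 AP-1 core and 1 match of TATAAA. Mmp8 holds a match of TATAAA, read on the minus strand, and no AP-1 core. Counted from the listed gene start, the TATAAA match begins at -16 in Mmp13, at 5 in Mmp12, after the start, and at -3 in Mmp8. Whether any of them acts as a TATA box was not tested. The other listed start of Mmp12 (chr9:7344147-7344446) holds neither. Across all 32851 listed start regions of the same length, 7.81% hold the AP-1 core and 13.6% the letters TATAAA. Among the members, 8 of 10 have an entry, and Fn1 and Thbs1 are not in the table. The letters ACGTG, the core of the hypoxia response element, were found in the start region of Mmp14 and in that of 1 of the 2 starts of Vegfa, against 19.6% of all regions. These are matches of letters, and binding was not measured.

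Summed over the 4 monocyte and macrophage classes, 6 of the 10 genes were higher on MCD, 1 was lower and 3 did not pass. Tgfb1, Tgfbi, Vegfa, Fn1, Mmp8 and Mmp14 were higher and Mmp13 was lower. Of all 10928 genes tested there, 37.3% passed the same threshold, an edgeR adjusted p under 0.05, 19.5% of them higher and 17.8% lower as shares of all genes. The median log2 fold change of the members was 0.67, against 0.03 for all genes tested. The values in these tests are TMM-scaled CPM, the standard counts-per-million scale of the summed cells, adjusted so that the typical gene does not differ between libraries. Without that adjustment, with library totals alone, the median gene was 0.40 higher on MCD on the log2 scale and 9 members were called higher and Mmp13 lower, so changes are relative to the typical gene.

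**Figure D1:**
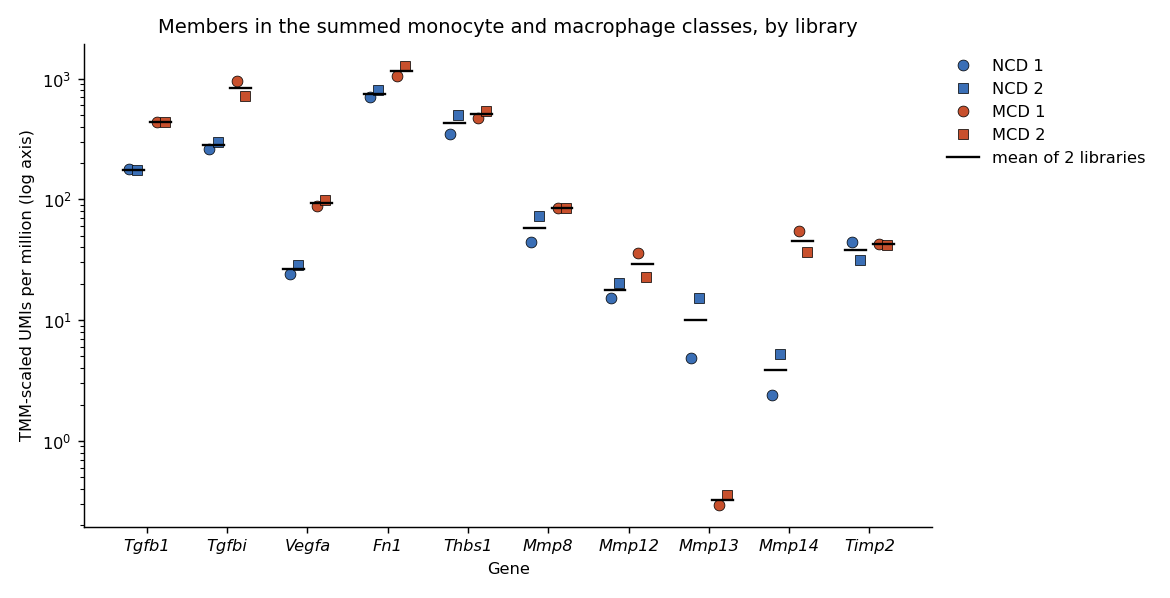
TMM-scaled CPM of each member (log axis) in the summed monocyte and macrophage classes, with circles for library 1 and squares for library 2 of each diet and bars for the mean of 2 libraries. Tgfb1, Tgfbi, Vegfa and Mmp14 lie higher in both MCD libraries, Mmp13 lies lower in both, and the diets overlap for Thbs1 and Timp2.

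Tgfb1 and Tgfbi were higher on MCD in each of the 3 classes that could be tested. Tgfb1, which encodes the ligand (chromosome 7, 25687002 to 25705077, GRCm38), stood at 178 and 175 TMM-scaled CPM in the NCD libraries and at 438 and 439 in the MCD libraries. Replicates lay close together and the diets did not overlap, with a log2 fold change of 1.31 ± 0.10 (SE; edgeR adjusted p = 2.48e-05). Within single classes Tgfb1 rose by 1.05 ± 0.13 in Ly6Chi-like, by 1.54 ± 0.15 in Ly6Clo-like and by 2.405 ± 0.235 in C1q macrophage-like cells. The CPM of Tgfb1 in the C1q macrophage-like cells was 102 and 79.2 on NCD, the lowest of the 3 classes, and 549 and 590 on MCD. In that class the 12 markers of Kupffer cells (resident liver macrophages) summed to 564 and 2586 CPM on NCD and 92.8 and 107 CPM on MCD. The part of this difference in the rises of Tgfb1, Tgfbi, Thbs1 and Mmp8 in that class was not tested.

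Tgfbi encodes a matrix protein that TGF-β induces and that binds collagen and integrins (chromosome 13, 56609523 to 56639562). It stood at 260 and 298 TMM-scaled CPM on NCD and at 951 and 713 on MCD, which is 1.57 ± 0.15 on the log2 scale (adjusted p = 8.66e-05, edgeR). The MCD libraries differed from each other by more than the NCD libraries did, but both lay far above them. By class the log2 fold changes were 1.34 ± 0.15, 1.96 ± 0.17 and 1.61 ± 0.19 in Ly6Chi-like, Ly6Clo-like and C1q macrophage-like cells. In the MCD libraries Tgfbi was also high in cells like lipid-associated macrophages, at 1037 and 743 CPM, and it was lower in migratory dendritic cell-like cells, at 43.5 and 42.0 CPM.

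Vegfa, the main growth factor for vessel endothelium and a target of the hypoxia response (chromosome 17, 46016993 to 46032369), stood at 24.2 and 28.7 TMM-scaled CPM on NCD and at 88.9 and 97.9 on MCD. The diets did not overlap, and the rise was 1.82 ± 0.15 on the log2 scale (adjusted p = 4.95e-05, edgeR). Cells like lipid-associated macrophages, which numbered 2 and 4 on NCD and 264 and 224 on MCD, had 249 and 265 CPM of Vegfa and held 60.1% and 52.2% of the Vegfa UMIs of the summed classes in MCD 1 and MCD 2. Of the Vegfa UMIs of all cells they held 34.4% and 26.9%, against 13.5% and 10.3% of all UMIs. Without them the rise was 1.02 (adjusted p = 0.00157). Within classes that both diets hold, Vegfa rose in Ly6Clo-like cells (1.20 ± 0.33, adjusted p = 0.0174) and missed the threshold in Ly6Chi-like (0.74 ± 0.28, 0.0550) and C1q macrophage-like cells (1.29 ± 0.48, 0.0530). DESeq2 did not call it in the Ly6Clo-like cells (adjusted p = 0.102), nor did edgeR without NCD replicate 2 (0.198).

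Fn1, the gene of the matrix glycoprotein fibronectin (chromosome 1, 71585520 to 71653200), stood at 699 and 802 TMM-scaled CPM on NCD and at 1052 and 1274 on MCD. The diets did not overlap, and the rise was 0.63 ± 0.12 on the log2 scale (adjusted p = 0.00310, edgeR). Most of its UMIs lay in Ly6Chi-like monocytes, with 53.0%, 51.8%, 51.3% and 52.7% in NCD 1, NCD 2, MCD 1 and MCD 2, where that class held 16.1% to 26.8% of all UMIs. Fn1 was among the 10 leading genes of clusters 1 and 2, so its level in that class is a description and not a finding. The diet difference in Ly6Chi-like cells was 0.42 ± 0.12 (adjusted p = 0.0166). It was 0.38 with NCD replicate 1 left out (adjusted p = 0.0798), 0.21 with MCD replicate 2 left out (adjusted p = 0.371) and 0.39 in DESeq2 (adjusted p = 0.0658), none of them called. In Ly6Clo-like cells Fn1 went from 191 and 170 to 398 and 521 TMM-scaled CPM, a log2 fold change of 1.35 ± 0.17 (adjusted p = 5.97e-05).

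Cells like lipid-associated macrophages carried Fn1 as well, at 1082 and 953 CPM in the MCD libraries. Fibronectin is made in quantity by hepatocytes and stellate cells. The 12 hepatocyte markers summed to 90.9 and 90.8 CPM in the NCD and 214.5 and 230 CPM in the MCD libraries of the 4 classes, but Trf alone carried that difference: the other 11 summed to 15.3 and 13.6 CPM on NCD and 14.0 and 11.1 CPM on MCD. The 12 markers of stellate cells and fibroblasts summed to 11.8 and 10.8 CPM on NCD and 38.9 and 33.9 CPM on MCD, mostly from Ecm1 and Acta2, without which the other 10 summed to 3.47 and 0.678 CPM on NCD and 1.93 and 1.47 CPM on MCD. Col1a1, Col1a2 and Lrat had 0 UMIs in the NCD libraries and 1 and 0, 1 and 0, and 0 and 3 UMIs in MCD 1 and 2. The part of these transcripts in the Fn1 result was not tested. T cell-like cells, which should lack Fn1, had 131 and 20.3 CPM in the MCD libraries, with 76.9% of the 26 UMIs of the first in 1 cell.

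Thbs1, the gene of thrombospondin-1 (chromosome 2, 118111876 to 118127133), did not differ beyond the spread between libraries in the summed classes. It stood at 349 and 503 TMM-scaled CPM on NCD and at 474 and 538 on MCD, so that NCD 2 lay above MCD 1, and the log2 fold change of 0.25 ± 0.16 did not pass (adjusted p = 0.244, edgeR). Without NCD replicate 2 it was 0.56 (adjusted p = 0.0136), and without the cells like lipid-associated macrophages 0.49 (adjusted p = 0.0208). The classes differed from each other. In Ly6Chi-like cells Thbs1 stood at 562 and 748 on NCD and 634 and 720 on MCD (0.05 ± 0.14, adjusted p = 0.830). In Ly6Clo-like cells it went from 106 and 175 to 451 and 497, a rise of 1.75 ± 0.18 (adjusted p = 1.23e-05), and in C1q macrophage-like cells from 160 and 112 to 325 and 231, a rise of 1.003 ± 0.248 (adjusted p = 0.00222) that was lost with DESeq2 (adjusted p = 0.0823).

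Whether the diet effect itself differed between Ly6Chi-like and Ly6Clo-like cells was tested as a class by diet term, blocked on library, which was called for 3 members, all 3 also with library totals. Of all 8397 genes tested for this term 4.04% were called, 0.988% with a larger rise in Ly6Chi-like and 3.05% with a larger rise in Ly6Clo-like cells. The log2 difference of the diet effect, Ly6Chi-like minus Ly6Clo-like, was -1.71 ± 0.14 for Thbs1 (adjusted p = 1.65e-19), -0.93 ± 0.12 for Fn1 (adjusted p = 8.78e-10) and -0.62 ± 0.14 for Tgfbi (adjusted p = 9.94e-04). For Tgfb1 it was -0.49 ± 0.16 and missed the threshold (adjusted p = 0.0696). Vegfa, Mmp8, Mmp14 and Timp2 were not called (adjusted p from 0.225 to 0.930), and Mmp12 and Mmp13 had too few UMIs to be tested. With UMIs thinned to the smallest library the term for Tgfbi was -0.53 and was no longer called (adjusted p = 0.124). The classes were drawn from the same cells, with Thbs1 among the leading genes of cluster 5 and Fn1 among those of clusters 1 and 2, all Ly6Chi-like. With 2 libraries a diet, the p-values of the term borrow the spread across genes.

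**Figure D2:**
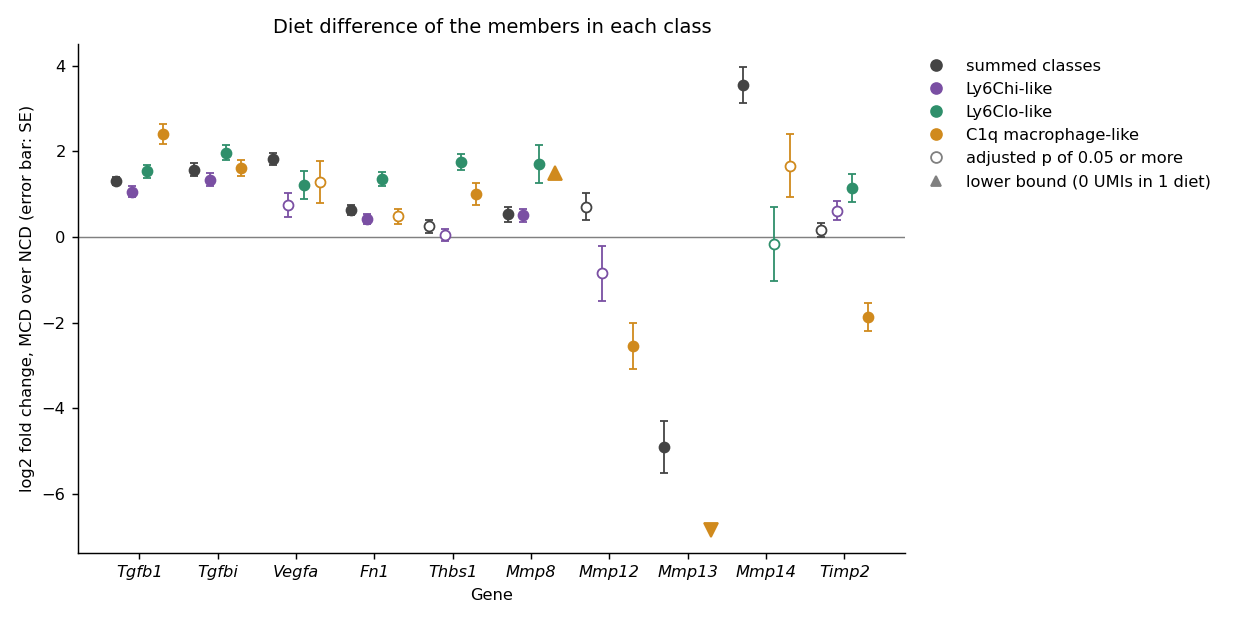
Log2 fold change of each member, MCD over NCD, in the summed classes and in the 3 classes with at least 20 cells in every library, with SE as error bars, filled circles for an adjusted p under 0.05 and triangles for a lower bound where a diet had 0 UMIs. Thbs1 lies near 0 in Ly6Chi-like and at 1.75 in Ly6Clo-like cells, and Mmp12, Mmp13 and Timp2 lie below 0 in C1q macrophage-like cells.

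Thbs1 was unevenly spread among the MCD monocytes. Cluster 5, one of the clusters of Ly6Chi-like MCD cells, had 1216 and 1605 CPM in MCD 1 and 2, while cluster 2, the other, had 264 and 319 CPM. Of the NCD cells of this class, 23.3% and 26.4% were positive for Thbs1 after each cell was thinned to 1000 UMIs. The same share was 18.4% and 18.0% in cluster 2 and 49.1% and 55.0% in cluster 5. Thbs1 led cluster 5 as its first gene, so this contrast describes how the cells were split. Vegfa was likewise higher in cluster 5 (72.0 and 109 CPM) than in cluster 2 (26.9 and 44.3 CPM), whereas Fn1 was at a like level in both, at 1761 and 2235 CPM in cluster 5 and 1594 and 1934 CPM in cluster 2.

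Of the clusters for which Thbs1 and Vegfa levels are given here, the highest lay outside the monocyte and macrophage classes. Cluster 0 stayed unnamed and was led by Retnlg, G0s2 and Ccr3, which are genes of granulocytes. Its MCD cells met the naming rule for eosinophils, with 3 markers of that list among their 50 leading genes. Its NCD cells had 2, with eosinophils as best list too, and the cluster got no shared name. Cluster 0 held 114, 41, 735 and 486 cells with median depths of 766, 757, 1313 and 1228.5 UMIs. Its Thbs1 stood at 2877, 2358, 1672 and 2786 CPM and its Vegfa at 414, 283, 383 and 670 CPM in NCD 1, NCD 2, MCD 1 and MCD 2. After thinning, 49.1% and 63.6% of its MCD cells with at least 1000 UMIs had Thbs1, and T cell-like cells of the same libraries had none in 25 and 20 cells, which allows shares of up to 12% and 15%. T cell-like cells were deeper, with medians of 6994 and 8164 UMIs. Fn1 was low in cluster 0, at 94.9 and 130 CPM on MCD.

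Thrombospondin-1 is also a main product of platelets. In Ly6Clo-like cells the 10 platelet markers summed to 10.9 and 6.54 CPM on NCD and 4.78 and 5.17 CPM on MCD, and in Ly6Chi-like cells to 5.01 and 11.2 CPM on NCD and 3.47 and 4.41 CPM on MCD. In C1q macrophage-like cells they summed to 530 and 475 CPM on NCD and 6.32 and 4.78 CPM on MCD. Over the 4 classes Pf4 and Clec1b carried most of the NCD sum, and Itga2b, Gp9, Gp1bb, Gp1ba, Gp6, Tubb1 and Treml1, which mark platelets, had 0 UMIs in the NCD cells. In MCD 1 and 2 Treml1 had 16 and 6, Itga2b 9 and 7 and Gp6 1 and 5 UMIs. Gp1bb, Gp1ba and Tubb1 each had 0 and 1, and Gp9 had 0 in both. Pf4 was among the 10 leading genes of NCD cluster 21, of the C1q macrophage-like class. The part of platelet transcripts in the Thbs1 results was not tested.

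**Figure D3:**
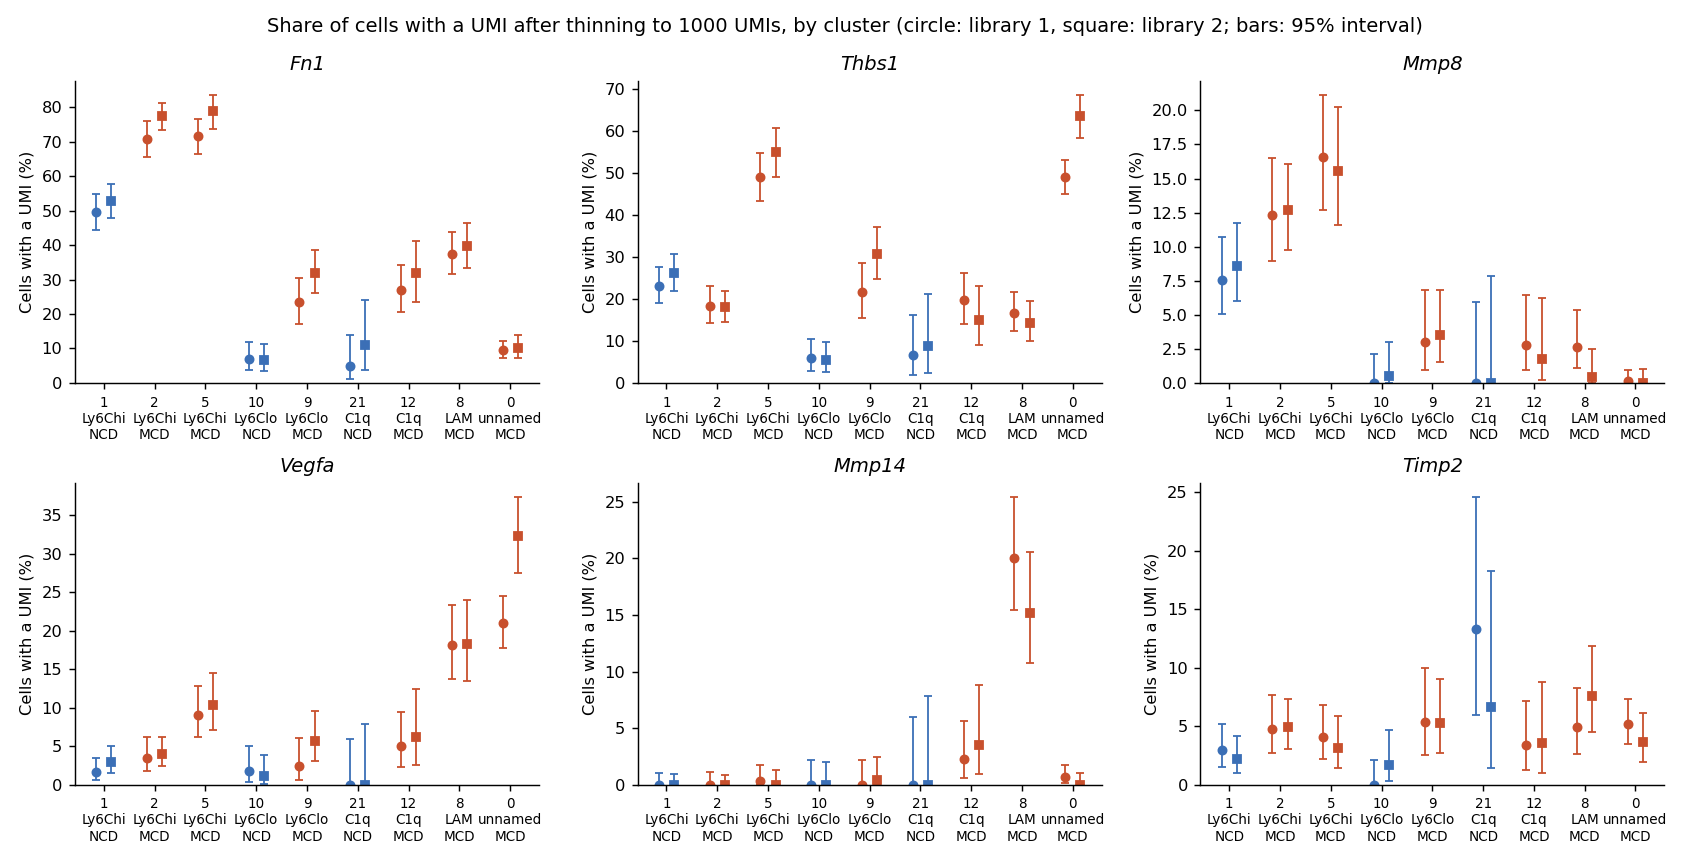
Share of cells with a UMI after thinning to 1000 UMIs, by cluster of the monocyte and macrophage classes and for the unnamed cluster 0, with NCD in blue, MCD in orange, circles and squares for libraries 1 and 2 and 95% Clopper-Pearson intervals that cover counting error only. Thbs1 is high in clusters 5 and 0, and Mmp14 reaches 20.1% and 15.2% in cluster 8, which holds the cells like lipid-associated macrophages.

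The metalloproteinases divided by class. Of the UMIs of Mmp8, the collagenase best known from neutrophils, Ly6Chi-like monocytes held 68.0%, 67.4%, 62.9% and 62.5% in NCD 1, NCD 2, MCD 1 and MCD 2. Mmp8 was among the 10 leading genes of clusters 1 and 5, so this too describes how the cells were split. Outside the classes, in the unnamed clusters 6 and 16, Mmp8 stood at 104 and 93.3 CPM and at 87.9 and 84.3 CPM in MCD 1 and 2. In the summed classes it stood at 44.3 and 72.5 TMM-scaled CPM on NCD and at 84.4 and 84.9 on MCD. The diets did not overlap, but the NCD libraries lay far apart, and the log2 fold change of 0.53 ± 0.18 passed narrowly (adjusted p = 0.0477). It was 0.25 without NCD replicate 1 (adjusted p = 0.233) and was not called with DESeq2 (0.51, adjusted p = 0.0726).

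Within classes, Mmp8 rose by 0.50 ± 0.16 in Ly6Chi-like (adjusted p = 0.0293) and by 1.70 ± 0.45 in Ly6Clo-like cells (adjusted p = 0.0140). Neither was called with NCD replicate 1 left out (0.28, adjusted p = 0.240, and 1.23, adjusted p = 0.131) or in DESeq2 (0.0994 and 0.105). In C1q macrophage-like cells it had 0 UMIs on NCD and 116 on MCD, at least 2.82-fold higher against a floor of 3 counts over the NCD libraries (adjusted p = 0.0114, but 0.0611 with DESeq2 and 0.0992 without NCD replicate 1). Neutrophil transcripts moved with 1 library here: the 11 neutrophil markers summed to 3623 CPM in the Ly6Chi-like cells of NCD 1 and to 95.1, 256 and 284 CPM in NCD 2, MCD 1 and MCD 2. Mmp8 stood at 66.3 CPM in the Ly6Chi-like cells of NCD 1, against 102, 171 and 163 CPM in the others. Ly6g was at 0 in all 4, and it had 0 UMIs in all retained NCD cells of any class. The part of neutrophil transcripts in the Mmp8 results was not tested.

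Mmp13, the collagenase known for the breakdown of scar matrix in liver, was seen in few cells. In the summed classes it had 6 and 20 UMIs in NCD 1 and 2 and 6 and 7 in MCD 1 and 2, from 5, 6, 5 and 5 cells, and 13 of the 20 came from 1 cell. Scaled for depth that is 4.84 and 15.1 TMM-scaled CPM on NCD and 0.295 and 0.355 on MCD, a fall of 4.91 ± 0.62 on the log2 scale (adjusted p = 4.47e-04 in edgeR). In C1q macrophage-like cells there were 5 and 20 UMIs on NCD and 0 in 296 MCD cells, at least 114.5-fold lower against a floor of 3 counts over the MCD libraries. Most of that bound came from NCD 2, at 176 CPM against 28.2 CPM in NCD 1: with NCD 2 left out it was at least 37.6-fold, and the gene then had too few UMIs to be tested in this class. Ly6Chi-like and Ly6Clo-like monocytes had 0 UMIs of Mmp13 in all 4 libraries. The 13 UMIs of the MCD libraries in these classes all came from cells like lipid-associated macrophages, at 1.37 and 1.84 CPM.

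Kupffer cells are the resident macrophages of the liver, and the sum of their markers fell with Mmp13 in the C1q macrophage-like cells. In the 4 summed classes the list summed to 99.9 and 235 CPM on NCD and 87.1 and 94.6 CPM on MCD. Not every marker fell there: Spic went from 6.24 and 6.10 to 26.4 and 32.6 CPM, and Nr1h3 from 23.6 and 16.9 to 47.8 and 42.5 CPM. In the C1q macrophage-like cells the 12 Kupffer cell markers summed to 564 and 2586 CPM in NCD 1 and 2 and to 92.8 and 107 CPM in MCD 1 and 2. Clec4f, Timd4, Folr2 and Marco had 0 UMIs in the MCD cells, Marco also in the NCD cells, and 3 Kupffer cell markers (Vsig4, Slc40a1, Cd5l) stood beside 3 C1q macrophage markers among the 10 leading genes of NCD cluster 21. Over the 40 sums of 12 classes and 4 libraries, the genes with the pattern most like Mmp13 were Folr2 (Pearson r = 0.99) and Cd5l (r = 0.98), both of that list. Mmp13 had 0 UMIs in most of these sums, so both values of r rest on few points. The part of resident cells in the fall was not tested.

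Mmp12, the elastase of macrophages, fell in C1q macrophage-like cells and was highest in cells like lipid-associated macrophages. In the summed classes it stood at 15.3 and 20.4 TMM-scaled CPM on NCD and at 35.7 and 22.8 on MCD, a log2 fold change of 0.71 ± 0.32 that did not pass (adjusted p = 0.112 in edgeR). In C1q macrophage-like cells it went from 95.8 and 65.4 to 20.6 and 3.92 TMM-scaled CPM, a fall of 2.55 ± 0.54 (adjusted p = 3.01e-04). That call rests on 22 NCD UMIs from 11 cells and was lost without MCD replicate 1 or 2 or without NCD replicate 1 (adjusted p from 0.0656 to 0.111). Cells like lipid-associated macrophages had 142 and 108 CPM and held 73.2% and 38.6% of the Mmp12 UMIs of MCD 1 and 2. In NCD 2, 1 of the 4 cells of that class held 13 of the 74 Mmp12 UMIs. Without the cells like lipid-associated macrophages the summed classes fell by 1.42 on the log2 scale (adjusted p = 0.0435).

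Few cells carried most of the Mmp12. Among cells like lipid-associated macrophages, 43 of 264 and 36 of 224 had a UMI, and 1 cell held 22.2% and 12.7% of the UMIs. With the cell of most UMIs left out of each library, the log2 fold change in the summed classes was 1.22 (adjusted p = 0.0159). In MCD 2, cDC2-like cells held 41.0% of all Mmp12 UMIs, at 69.8 CPM against 13.6 CPM in MCD 1. A value of 178 CPM in the T cell-like cells of MCD 2 came from a single cell with 35 UMIs.

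Mmp14, the membrane-anchored metalloproteinase (chromosome 14, 54431612 to 54445364), had the largest rise of the 10 genes in the summed classes. It stood at 2.42 and 5.29 TMM-scaled CPM on NCD, from 3 and 7 UMIs, and at 54.4 and 36.8 on MCD, a log2 fold change of 3.55 ± 0.42 (adjusted p = 3.19e-04 in edgeR). Cells like lipid-associated macrophages had 222 and 172 CPM of Mmp14 and held 58.3% and 50.4% of all Mmp14 UMIs in MCD 1 and 2, and 87.6% and 90.2% of those in the summed classes. A total of 227 of 264 and 168 of 224 of these cells had a UMI, and no cell held more than 2.29% of them, so that Mmp14 was spread over the cluster, whereas 43 and 36 of the cells carried Mmp12. Without this cluster the log2 fold change was 0.96 (adjusted p = 0.231).

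In the classes that both diets hold, Mmp14 was low. Ly6Chi-like monocytes had 1 UMI on NCD and 23 on MCD, and Ly6Clo-like monocytes stood at 2.51, 9.74, 8.47 and 3.25 TMM-scaled CPM in the 4 libraries (adjusted p = 0.913). C1q macrophage-like cells had 3 UMIs on NCD and 154 on MCD, a ratio in CPM of 3.74 with a 95% counting interval from 1.25 to 18.3, and the test did not pass (adjusted p = 0.102). Endothelial-like cells also carried Mmp14, at 65.2 and 41.6 CPM on NCD and 141 and 96.1 CPM on MCD, and on NCD they held 69.8% and 59.5% of its UMIs. In the 4 summed classes the 11 endothelial markers summed to 345 and 369 CPM on NCD and 336 and 287 CPM on MCD, of which Fcgr2b, which macrophages also express, made up 211 and 209 CPM on NCD and 294 and 209 CPM on MCD. The other 10 summed to 135 and 160 CPM on NCD and 41.5 and 78.1 CPM on MCD. Their part in the Mmp14 result was not tested.

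**Figure D4:**
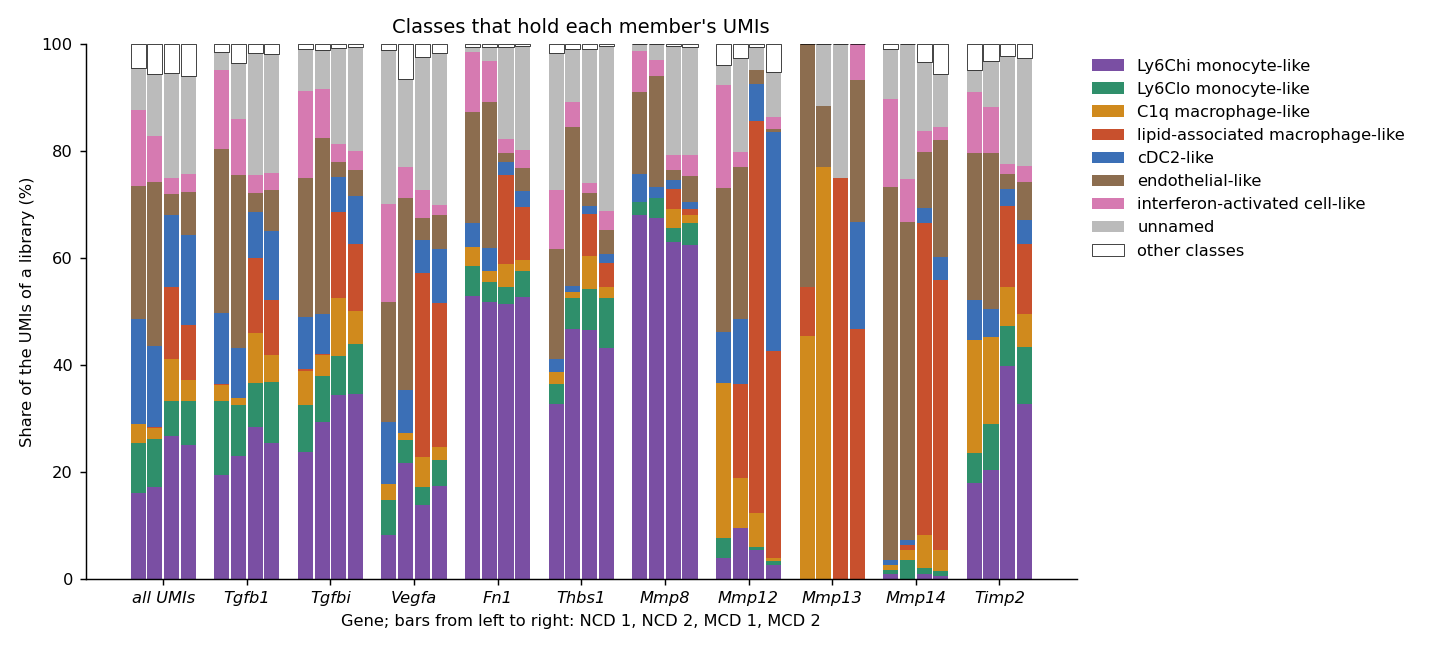
Share of the UMIs of each library that lay in each class, for all UMIs and for each member, with 4 bars per gene in the order NCD 1, NCD 2, MCD 1 and MCD 2. Ly6Chi-like monocytes hold 62.5% to 68.0% of Mmp8 and 51.3% to 53.0% of Fn1, and cells like lipid-associated macrophages hold 50.4% and 58.3% of Mmp14 on MCD, while the bars of Mmp13 rest on 8 to 26 UMIs.

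Timp2, which inhibits metalloproteinases and also helps MMP14 to activate MMP2 (chromosome 11, 118301069 to 118355740), did not pass in the summed classes. It stood at 44.3 and 31.7 TMM-scaled CPM on NCD and at 42.7 and 42.1 on MCD, with overlapping diets and a log2 fold change of 0.16 ± 0.16 (adjusted p = 0.470 in edgeR). The classes went in opposite directions. In C1q macrophage-like cells Timp2 fell from 166 and 140 to 34.0 and 53.6 TMM-scaled CPM, by 1.88 ± 0.32 on the log2 scale (adjusted p = 1.12e-05). In Ly6Clo-like cells it rose from 17.6 and 19.5 to 39.8 and 42.0, by 1.14 ± 0.32 (adjusted p = 0.0188), a call lost without either NCD library (adjusted p = 0.101 and 0.0872) and with DESeq2 (0.146). In Ly6Chi-like cells the value of 0.61 ± 0.23 missed the threshold (adjusted p = 0.0545). The fall in the C1q macrophage-like class stands beside the same Kupffer cell markers as that of Mmp13, and their part in it was not tested.

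By class, 4 of 8 tested members were higher in Ly6Chi-like cells (Tgfb1, Tgfbi, Fn1 and Mmp8), and none was lower, where of 9825 genes tested 29.6% were called, 15.3% higher and 14.4% lower. In Ly6Clo-like cells 7 of 8 were higher, all but Mmp14, and none was lower, where of 7732 genes 25.1% were called, 12.7% higher and 12.4% lower. In C1q macrophage-like cells 4 of 10 were higher (Tgfb1, Tgfbi, Thbs1 and Mmp8) and 3 were lower (Mmp12, Mmp13 and Timp2), where of 6922 genes 19.8% were called, 10.5% higher and 9.29% lower. The NCD and MCD cells of that class differed in Kupffer cell markers, and the part of this in its 7 calls was not tested. Members left out of a class test had too few UMIs there. In all retained cells, whatever their class, 9 members were higher and Mmp13 was lower, where of 12740 genes 49.1% were called, 26.1% higher and 22.9% lower. There the calls of Mmp14 and Timp2 were lost when single libraries were left out (adjusted p from 0.0595 to 0.124). The cell mix differs as well, since endothelial-like cells held 25.0% and 30.6% of the UMIs of NCD 1 and 2 and 3.87% and 8.03% of those of MCD 1 and 2.

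The order of the classes differed between the members. For Fn1 on MCD, Ly6Chi-like monocytes were first with 1866 ± 263 CPM (SD, n = 2 libraries) and cells like lipid-associated macrophages second with 1018 ± 91, values that did not overlap. For Mmp14 on MCD, cells like lipid-associated macrophages were first with 197 ± 35.4 CPM and endothelial-like cells second with 118 ± 31.5. For Vegfa, cells like lipid-associated macrophages were first with 257 ± 11.03 CPM, and the interferon-activated cells second with 108 ± 75.2, the libraries of which lay apart at 161 and 54.5 CPM. Tgfb1 was high in every myeloid class on MCD, from 319 ± 29.7 CPM in cDC2-like to 593 ± 17.5 CPM in Ly6Clo-like cells, and the C1q macrophage-like (549 and 590 CPM) and Ly6Clo-like cells (581 and 605 CPM) overlapped.

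Endothelial-like clusters were not free of monocyte transcripts. Clusters 7 and 13 had cells with a median of 2.15 (NCD) and 1.45 (MCD) times the median UMI count of their own library. Cluster 13 had 734 and 445 CPM of Tgfbi and 447 and 632 CPM of Fn1 in MCD 1 and 2. Cluster 22, endothelial-like with a ratio of 0.48, had 26.9 and 30.2 CPM of Tgfbi and 20.2 and 34.6 CPM of Fn1 but 141 and 197 CPM of Mmp14. Doublets were not removed, and their part in these values was not tested.

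The genes whose pattern over classes was most like that of a member were as follows, with Pearson's r over the same 40 sums of 12 classes and 4 libraries, from which the mean of each library was removed and which share cells and depth. They were Lyz2 (0.93) and Mpeg1 (0.93) for Tgfbi, and Cd14 (0.94) and F13a1 (0.92) for Fn1. For Mmp8 they were Cd177 (0.92) and Vcan (0.90), for Mmp14 Plxna1 (0.84) and Gna13 (0.79), and for Mmp12 C1qb (0.77) and C1qa (0.76). For Thbs1 they were Mettl9 (0.86) and C3 (0.83), for Tgfb1 BC028528 (0.88) and Naip2 (0.88), for Timp2 Tlr4 (0.77) and Zfp719 (0.73), and for Vegfa Pwwp2b (0.78) and Txnrd1 (0.71).

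The other genes of the TGF-β pathway gave a mixed picture in the summed classes. Of 6 tested ligands, carriers and activators other than the members, 3 were higher and 1 lower, with a median log2 fold change of 0.23 against 0.03 for all genes tested. Without the cells like lipid-associated macrophages 1 of 5 was higher and 1 lower. The carrier gene Ltbp3 had 2 UMIs on NCD and 195 on MCD, a ratio in CPM of 8.06 with a 95% counting interval from 2.20 to 67.01 (adjusted p = 0.0191), and was not called without the cells like lipid-associated macrophages (adjusted p = 0.369), without NCD replicate 1 or 2, or in DESeq2. Lrrc32, which holds latent TGF-β on the cell surface, had 0 UMIs on NCD and was at least 5.32-fold higher on MCD. Ltbp4, another carrier, fell by 2.31 ± 0.61 (adjusted p = 0.0173), a call lost without NCD replicate 1 or 2. Of the 16 receptors and SMADs, 2 were higher and 2 lower (median 0.24): the inhibitory Smad6 rose by 1.47 ± 0.42 and the ubiquitin ligase Smurf1 by 0.90 ± 0.27, while the receptor genes Tgfbr2 and Tgfbr3 fell by 0.55 ± 0.17 and 1.58 ± 0.33. Smad6, Smurf1 and Tgfbr3 were not called without NCD replicate 1, nor Tgfbr2 without NCD replicate 2, and with library totals 8 genes of this list were higher and 1 lower.

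Among 10 tested genes that TGF-β is known to induce, 5 were higher and 0 lower (median 0.56). Without the cells like lipid-associated macrophages 4 of 9 were higher and 1 lower (median 0.32), the lower one being Skil (-0.43, adjusted p = 0.0129), an inhibitor of SMAD signalling. Id1, an inhibitor of differentiation factors, rose from 73.1 ± 7.23 to 240 ± 12.4 TMM-scaled CPM (SD, n = 2) and Id3 from 318 ± 52.7 to 807 ± 6.71, log2 rises of 1.72 ± 0.12 and 1.35 ± 0.12. Both Id genes are also induced by bone morphogenetic proteins. Smad7, an inhibitor of the pathway that TGF-β itself induces, did not pass (0.28, adjusted p = 0.173).

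Of the other metalloproteinases, Mmp19 and Mmp9 had enough UMIs to be tested and 13 of 15 did not. Mmp19 rose by 0.97 ± 0.23 and Mmp9, a gelatinase, fell by 2.53 ± 0.86. The fall of Mmp9 rests on 7 and 2 UMIs on NCD and 6 and 18 on MCD, with 1.36 CPM in NCD 2 and 1.02 CPM in MCD 2. Both calls were lost without NCD replicate 1, and that of Mmp9 also without NCD replicate 2. Mmp9 belongs to the neutrophil marker list, which summed to 2068 CPM in NCD 1 and to 123, 182 and 217 CPM in NCD 2, MCD 1 and MCD 2. S100a8 and S100a9 made up 921 and 755 CPM of the NCD 1 sum. In the same order of libraries Csf3r stood at 76.3, 69.8, 86.9 and 96.3 CPM and Retnlg at 9.02, 8.13, 6.75 and 8.27 CPM. The part of neutrophil transcripts in the fall of Mmp9 was not tested. Among 4 tested inhibitors and carriers other than Timp2, 2 were higher and 1 lower (median 0.67). The scavenger receptor Lrp1, which clears metalloproteinases, rose by 0.71 ± 0.11 and Bsg, an inducer of metalloproteinases, by 0.64 ± 0.13. Timp3 fell by 2.90 ± 0.58, a call lost without NCD replicate 2. Timp3 was among the 10 leading genes of the NCD cells of endothelial-like cluster 7. The part of endothelial transcripts in its fall was not tested. Timp1 had 0 UMIs on NCD and 72 on MCD, at least 1.98-fold higher, and did not pass (adjusted p = 0.0804). Of 7 ADAM proteases 2 were higher (Adam8 by 0.92 ± 0.17, Adam15 by 0.57 ± 0.14) and 2 lower (Adam10 by 0.72 ± 0.12, Adamts1 by 2.44 ± 0.80), with a median of -0.41. Adam15 was not called without NCD replicate 1, nor Adamts1 without either NCD library.

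In the plasminogen system, 2 of 9 tested genes were higher and 3 lower (median 0.29). Plaur, the urokinase receptor, went from 152 ± 6.99 to 404 ± 25.1 TMM-scaled CPM, a log2 rise of 1.42 ± 0.10 (adjusted p = 2.78e-05), and Anxa2, a plasminogen receptor, rose by 0.65 ± 0.11. The inhibitor gene Serpinb2 fell by 1.72 ± 0.17 and Serpinb6a by 1.85 ± 0.21. Of 11 other matrix and matricellular genes, 5 were higher and 2 lower (median 0.03). Gpnmb rose by 3.58 ± 0.27 and Spp1, the gene of osteopontin, by 3.24 ± 0.70. Both are markers used to name the cells like lipid-associated macrophages, and without that cluster Spp1 was at 0.09 (adjusted p = 0.901) and Gpnmb at 1.56 (adjusted p = 0.0118). Spp1 was also not called without NCD replicate 1 or 2. Sparc fell by 1.86 ± 0.61 and the perlecan gene Hspg2 by 2.33 ± 0.65, each a call lost without NCD replicate 1 or 2. With a mitochondrial share of up to 20% allowed, Sparc was among the 10 leading genes of an endothelial-like NCD cluster. The part of endothelial transcripts in the falls of Sparc and Hspg2 was not tested.

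Matrix receptors fell more often than they rose, with 8 of 16 lower and 4 higher (median -0.19), but with scaling by library totals 5 were lower and 4 higher (median 0.18). The mannose receptor Mrc1, which takes up collagen, fell by 2.15 ± 0.36 and Cd36, a receptor of thrombospondin-1, by 0.95 ± 0.10, and both stand in the marker lists of the classes as well. Sdc1 had 1 UMI on NCD and 421 on MCD, a ratio in CPM of 34.8 with a 95% counting interval from 6.21 to 1378 (adjusted p = 0.00845), and was not called without NCD replicate 1. Sdc4 rose by 1.38 ± 0.16 but was -1.54 without the cells like lipid-associated macrophages (adjusted p = 0.00201). Of the 7 other genes of the VEGF family and its receptors 0 were higher and 4 lower (median -1.63). Vegfc and the receptor gene Kdr fell by 2.53 ± 0.47 and 2.54 ± 0.59, and Kdr belongs to the endothelial marker list. Without Fcgr2b, the other 10 markers of that list summed to 135 and 160 CPM on NCD and 41.5 and 78.1 CPM on MCD. Among them Pecam1 stood at 28.4 and 28.5 CPM on NCD and 5.39 and 5.78 CPM on MCD. Ptprb stood at 24.3 and 23.0 CPM on NCD and 3.06 and 8.61 CPM on MCD. Not every marker fell: Eng stood at 6.24 and 5.42 CPM on NCD and 7.60 and 10.3 CPM on MCD. Fcgr2b stood at 211 and 209 CPM on NCD and 294 and 209 CPM on MCD. The part of endothelial transcripts in the falls of Vegfc and Kdr was not tested. The Kdr call was lost without NCD replicate 2.

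Of 14 hypoxia genes other than Vegfa, 4 were higher and 3 lower (median 0.38). The glucose transporter gene Slc2a1 rose by 1.60 ± 0.17 and Ankrd37 by 1.93 ± 0.47, whereas Ddit4 fell by 1.46 ± 0.18 and Higd1a by 0.81 ± 0.10. The Ankrd37 call was lost without NCD replicate 1 or 2. Among 12 profibrotic growth factors and cytokines 4 were higher and 0 lower (median 0.73). Il1b went from 250 ± 65.0 to 1252 ± 116 TMM-scaled CPM, a log2 rise of 2.33 ± 0.16 (adjusted p = 1.90e-05), and Tnf rose by 1.23 ± 0.30, a call lost without NCD replicate 2 and without the cells like lipid-associated macrophages (0.50, adjusted p = 0.241). Without those cells 3 genes of this list were higher and 2 lower, with Igf1 at -2.37 (adjusted p = 0.00114).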

How the data were processed

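Single cells from liver were profiled with the 3′ v3 chemistry of 10x Genomics. The authors deposited UMI counts per gene and cell barcode, made with Cell Ranger 3.0.2 per the file headers and with mm10 per the submitters' processing notes. The table of MCD 1 lists 27998 genes, and those of the others 28692, so the 27998 shared ones were used (27645 of them in GENCODE M21). Totals per library were 7518597, 7428431, 32975974 and 37772284 UMIs (NCD 1, NCD 2, MCD 1, MCD 2). Intervals and floors cover counting error only.

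The cell filter required 200 genes per barcode and allowed a mitochondrial share of up to 10%. No doublet caller was run, and doublets must be taken as present. Cells were scaled to 10000, log transformed, reduced to 2000 variable genes and 30 principal components, joined to 15 neighbours and clustered by Leiden at resolution 2.0 without integration (Python 3.11.15, scanpy 1.11.5, leidenalg 0.10.2, numpy 2.4.6, scipy 1.17.1, pandas 2.3.3, matplotlib 3.10.9). A cluster was named after the list, of 24 marker lists, with most members among its 50 leading genes, given at least 3 there and no other list with more among the 10 leading. Resolution and naming rules were settled after clusters had been seen. No member is in a marker list.

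Sums of UMIs per library and class entered edgeR's quasi-likelihood test of diet (edgeR 4.0.16, limma 3.58.1, R 4.3.3), TMM scaling, filterByExpr and Benjamini-Hochberg adjustment over all genes tested. Every adjusted p comes from this test unless DESeq2 (1.42.0) is named. With 2 libraries a diet, p-values borrow the spread across genes, and an exact two-sided permutation test could not go below 0.333. The SE is the log2 fold change over the root of its F statistic. The scripts were tested on simulated data. The class by diet term has library as a block. A class needed 20 cells in every library, so lipid-associated macrophage-like cells had no diet test. Shares of cells were taken after thinning to 1000 UMIs, with Clopper-Pearson intervals of 95%. Floors are 3 counts over the libraries of a diet.

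The members, marker lists and 12 pathway lists were chosen with earlier results of these data known. All members are named, then from each list the 2 largest rises and 2 largest falls past the threshold, and per member the 2 genes with the highest Pearson correlation of log2(CPM + 20). Other genes given with values (Smad7, Skil, Timp1, Igf1) were chosen after their values were seen. Symbols Ccn2 and Vegfd were read as Ctgf and Figf. Alternatives were other scaling, DESeq2, no gene filter, each library left out, thinning, replicate block, other cell filters, classes and resolutions.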

Additional observations from a re-analysis of the deposited data

Results flagged for a closer look

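The diet difference of 3 of the 8 tested members was not the same in Ly6Chi-like and Ly6Clo-like monocytes by the test of the class by diet term. Of all 8397 genes tested, 4.04% were called, 3.05% with a larger rise in Ly6Clo-like cells, the direction of these 3. The log2 difference of the MCD effect, Ly6Chi-like minus Ly6Clo-like, was -1.71 for Thbs1, -0.93 for Fn1 and -0.62 for Tgfbi. The term for Tgfbi was no longer called with UMIs thinned to the smallest library. Thbs1 and Fn1 were among the leading genes of Ly6Chi-like clusters drawn from the same cells. For Thbs1 the underlying log2 fold changes were 0.05 in Ly6Chi-like and 1.75 in Ly6Clo-like cells, for Fn1 0.42 and 1.35, and for Tgfbi 1.34 and 1.96. On NCD the mean levels were lower in Ly6Clo-like than in Ly6Chi-like cells for all 3 genes, at 124 against 555 CPM of Thbs1, 159 against 998 CPM of Fn1 and 168 against 276 CPM of Tgfbi.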

How the results depend on the processing

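Depth limits the NCD values, with medians of 2173 and 2253.5 UMIs a cell, and genes with few NCD UMIs (Mmp12, Mmp13, Mmp14) rest on few cells. With 1 library left out, the lone library of that diet is assumed to vary like the others. Mmp13 could not be tested in C1q macrophage-like cells without NCD replicate 2 or after thinning. Of the alternatives for the members, 474 kept direction and side of the threshold, 33 lost and 26 gained the call, and 15 reversed.

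Counts of genes called that moved over 1.5 times were, for Ly6Clo-like cells, 1032 with DESeq2 against 1939, for C1q macrophage-like cells 787 with DESeq2 and 566 after thinning to the smallest library against 1371, and for the class by diet term 180 and 151 against 339. With 1 library left out the counts ran from 1924 to 2421 in Ly6Chi-like (2912 with all), 1081 to 1748 in Ly6Clo-like, 627 to 1031 in C1q macrophage-like cells and 221 to 250 for the term. With library totals the calls split 3814 higher and 969 lower in the summed classes, 3452 and 625 in Ly6Chi-like, 1864 and 452 in Ly6Clo-like and 1090 and 459 in C1q macrophage-like cells, and 165 and 113 for the term (83 and 256 with TMM). DESeq2 split 295 and 492 in C1q macrophage-like cells and 23 and 157 for the term.

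In the summed classes, with equal weight to each class Mmp12 was -2.37 and Timp2 -0.63, and without the lipid-associated macrophage-like cluster Mmp12 was -1.42. At Leiden resolution 0.5 Thbs1 was -0.70, Mmp8 -1.65 and Timp2 -0.033, where the MCD Ly6Chi-like cells fell into a merged cluster without a name. With 1 library left out Timp2 ran from -0.038 (without NCD replicate 2) to 0.443. In Ly6Chi-like cells Thbs1 was -0.03 after thinning and, with 1 library left out, from -0.13 to 0.28 (-0.08 without MCD replicate 2), and Mmp12 ran from -1.365 to 0.18. In Ly6Clo-like cells Mmp14 was 0.17 with library totals and ran from -0.79 to 1.14 with 1 library left out. The term ran from -1.38 to 0.37 for Vegfa and from -1.76 to 6.10 for Mmp14. Where no construction is named, the cause was not tested.

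The deviations of same-numbered libraries from their diet mean had a correlation of r = 0.02 over 10928 genes. With 2 libraries a diet, the deviations of one mirror those of the other, so the 2 pairs are not independent. Whether same-numbered libraries share a batch cannot be decided from this value, since no label gives a batch. With a replicate block the counts were 4245 in the summed classes, 3090, 2235 and 1189 in the 3 classes and 7255 in all cells, and Mmp12 in the summed classes (0.68) and Vegfa (0.77) and Timp2 (0.60) in Ly6Chi-like cells were called (adjusted p = 0.0317, 0.00344 and 0.0362).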
